A study of Rattus norvegicus with 9 samples.

Results

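The epidermal growth factor (EGF) family genes described here are 7 ligands (Hbegf, Tgfa, Areg, Ereg, Epgn, Btc and Nrg1) and 3 receptors (Egfr, Erbb2 and Erbb3). They were taken by symbol from tables of 17315 genes, and all 10 were present. RNA was sequenced from primary cultures of rat olfactory epithelium (strain SD) at passage 7, whose cell type is given as horizontal basal cell, the reserve stem cell of that epithelium. Vehicle cultures (0.1% DMSO, time 0) were compared with cultures kept in 50 nM phorbol 12-myristate 13-acetate (PMA) for 6 h or 12 h, with 3 libraries in each of the 3 groups. PMA stands in for diacylglycerol and switches on protein kinase C enzymes. The labels give no genotype, age or number of animals, and leave unsaid whether libraries come from separate cultures, so p-values measure only the spread between libraries. All vehicle libraries are from time 0, so PMA and time in culture cannot be told apart. A DMSO level is stated for vehicle only.

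EGF family ligands are made as membrane-anchored precursors, and proteases of the ADAM group release most of them. Released ligands bind receptors of the ErbB family, which pair up and signal through the RAS-ERK and PI3K pathways. EGFR binds HB-EGF, TGF-alpha, amphiregulin, epiregulin, epigen and betacellulin, whereas neuregulin-1 binds ErbB3 and ErbB4. ErbB2 has no known ligand of its own and serves as a partner, and ErbB3 has an impaired kinase and signals through its partners. In stratified and olfactory epithelia this family is known as a mitogenic and wound-responsive input to basal cells.

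Levels are given in CPM, the reads of a gene divided by the scaled library total and multiplied by 1000000, in the order of replicates 1, 2 and 3. Means carry the SD (n = 3), and log2 fold changes carry their SE. A gene is said to have risen or fallen where edgeR's quasi-likelihood test gave an adjusted p under 0.05. Libraries held 13601635 to 19001819 reads in genes. In bulk RNA, fewer cells of a type and less RNA per cell cannot be told apart. CPM is not corrected for transcript length, so levels are compared between groups for 1 gene and not between genes.

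Of the 9 members with enough reads to test (all but Btc), 4 rose and 4 fell at 6 h, and 6 rose and 3 fell at 12 h. Across all 10128 genes tested, 76.8% changed at 6 h (37.8% rose and 39.0% fell) and 75.8% at 12 h (37.7% rose and 38.2% fell), so a changed member was not unusual in these cultures. The median log2 fold change of the 9 members was -0.06 at 6 h and 0.86 at 12 h, against -0.03 and -0.02 for all genes tested. From 6 h to 12 h 4 members rose and 5 fell, against 51.1% of all genes called in that step (25.3% higher and 25.8% lower). Groups did not overlap for 8 of the 9 members at 6 h, for 9 at 12 h and for 9 between the times, against 79.0%, 78.7% and 58.0% of all genes. Both comparisons with vehicle use the same vehicle libraries.

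The members followed 4 courses, and the promoters of genes from 3 of them are shown because their course differs while their chromosomal setting or receptor system is shared. Tgfa was highest at 6 h, Areg and Egfr were highest at 12 h, and Epgn was lowest at 12 h. The windows are RefSeq sequences of the GRCr8 assembly, 250 bases before to 50 bases after the annotated start, and 7 of the 10 members matched an entry. Capitals mark the motifs searched for.
Tgfa, GRCr8 chr4:120175469-120175768, plus strand: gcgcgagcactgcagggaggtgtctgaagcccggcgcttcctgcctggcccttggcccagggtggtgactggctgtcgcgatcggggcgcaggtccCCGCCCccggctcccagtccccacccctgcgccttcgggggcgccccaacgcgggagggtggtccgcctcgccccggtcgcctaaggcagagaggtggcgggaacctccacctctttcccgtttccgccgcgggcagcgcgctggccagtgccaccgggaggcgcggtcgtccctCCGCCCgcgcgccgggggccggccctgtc
Areg, GRCr8 chr14:17265592-17265891, minus strand: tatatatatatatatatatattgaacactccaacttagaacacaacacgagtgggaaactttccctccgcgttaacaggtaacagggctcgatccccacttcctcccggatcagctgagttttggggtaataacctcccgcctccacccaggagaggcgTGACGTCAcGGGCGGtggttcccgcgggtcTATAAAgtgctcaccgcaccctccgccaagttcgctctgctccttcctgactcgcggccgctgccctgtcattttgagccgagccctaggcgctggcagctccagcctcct
Egfr, GRCr8 chr14:95378376-95378675, plus strand: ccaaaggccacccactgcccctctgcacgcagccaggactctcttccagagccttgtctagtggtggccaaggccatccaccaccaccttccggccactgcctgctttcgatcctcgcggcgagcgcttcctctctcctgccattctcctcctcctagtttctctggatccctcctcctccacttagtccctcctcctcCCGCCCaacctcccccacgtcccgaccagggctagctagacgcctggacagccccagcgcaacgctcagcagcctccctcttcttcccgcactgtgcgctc
Epgn, GRCr8 chr14:17368951-17369250, minus strand: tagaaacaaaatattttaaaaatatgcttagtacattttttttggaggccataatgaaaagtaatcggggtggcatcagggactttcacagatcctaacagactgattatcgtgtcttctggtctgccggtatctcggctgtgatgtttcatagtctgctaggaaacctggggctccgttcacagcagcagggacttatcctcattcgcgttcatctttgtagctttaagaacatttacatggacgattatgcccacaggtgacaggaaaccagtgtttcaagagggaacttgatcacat
Several kinds of letters were searched on both strands: the AP-1 site TGACTCA or TGAGTCA, the cAMP response element TGACGTCA, the GC box GGGCGG, the CCAAT box CCAAT and the TATA box TATAAA. The Areg window held TGACGTCA 91 bases before the start, GGGCGG 82 bases before it and TATAAA 61 bases before it, none overlapping another. Of 33469 windows of this length, 1.83% hold TGACGTCA, 14.2% TATAAA, 33.1% GGGCGG, 37.5% CCAAT and 4.63% an AP-1 site. Tgfa and Egfr held a GC box, Epgn held none of these letters, and no window of the 7 members held the AP-1 letters. A match describes the letters of the window only.

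Areg, Ereg, Epgn and Btc lie next to each other on chromosome 14 of that assembly, with no other gene of the table between the first and the last of the 4. Areg and Epgn, printed above, moved in opposite directions at 12 h.

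Hbegf and Tgfa were the ligand genes that rose at 6 h and stayed above vehicle at 12 h. Hbegf encodes HB-EGF, a heparin-binding ligand of EGFR that keratinocytes release on wounding. Its level was 226, 229 and 243 CPM in vehicle, 1846, 1985 and 1826 CPM at 6 h and 1101, 1082 and 1098 CPM at 12 h. Every PMA library lay far above every vehicle library, and every 12 h library lay between the other groups. At 6 h the level was 8.10-fold that of vehicle (log2 fold change 3.02 ± 0.08, adjusted p = 1.1e-15). From 6 h to 12 h Hbegf fell by 0.79 on the log2 scale (SE 0.07, adjusted p = 1.1e-07), and at 12 h it was still 4.70-fold above vehicle (log2 fold change 2.23 ± 0.07, adjusted p = 2.8e-14).

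Tgfa encodes TGF-alpha, an EGFR ligand that epithelial cells make for themselves. It stood at 163, 168 and 195 CPM in vehicle, 453, 444 and 455 CPM at 6 h and 378, 323 and 363 CPM at 12 h. The 3 groups did not overlap, with 6 h highest and vehicle lowest. The rise was 2.57-fold at 6 h (log2 fold change 1.36 ± 0.08, adjusted p = 8.5e-11) and 2.02-fold at 12 h (1.02 ± 0.08, adjusted p = 4.4e-09). The drop between the PMA times was small (-0.35 ± 0.08, adjusted p = 0.0018).

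Areg, which encodes amphiregulin, rose at 12 h and not at 6 h. The vehicle libraries held 83.2, 74.9 and 83.6 CPM, the 6 h libraries 86.9, 74.8 and 69.7 CPM and the 12 h libraries 143, 150 and 145 CPM. Vehicle and 6 h overlapped, and the 12 h libraries lay above all others. The log2 fold change was -0.06 ± 0.09 at 6 h (adjusted p = 0.52), 0.86 ± 0.09 at 12 h (adjusted p = 8.5e-08) and 0.92 ± 0.09 from 6 h to 12 h (adjusted p = 2.1e-07). With upper-quartile scaling or no scaling the 6 h value passed the test as lower (-0.32 and -0.60).

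Ereg, Epgn and Nrg1 were the ligand genes that fell. Ereg encodes epiregulin, a ligand of EGFR and ErbB4. It had 15.0, 11.7 and 12.1 CPM in vehicle, 4.15, 3.38 and 3.70 CPM at 6 h and 7.96, 5.01 and 5.55 CPM at 12 h. Both PMA groups lay below vehicle without overlap, and 12 h lay above 6 h. The fall was -1.79 ± 0.21 at 6 h (adjusted p = 6.3e-07) and -1.06 ± 0.20 at 12 h (adjusted p = 0.00015). The partial return from 6 h to 12 h (0.73 ± 0.22, adjusted p = 0.012) lost its call without PMA 12 h replicate 1 (0.50, adjusted p = 0.092).

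Epgn encodes epigen, a low-affinity ligand of EGFR, and it was the member that went on falling. Its vehicle libraries held 28.3, 17.8 and 11.6 CPM, the 6 h libraries 5.74, 3.01 and 5.55 CPM and the 12 h libraries 1.29, 0.726 and 0.607 CPM. The groups did not overlap, although at 12 h only 19, 10 and 7 reads stood behind the values. The log2 fold change was -2.01 ± 0.33 at 6 h (adjusted p = 0.00012) and -4.42 ± 0.42 at 12 h (adjusted p = 7.9e-07). The step from 6 h to 12 h (-2.41 ± 0.45, adjusted p = 0.00076) did not pass with limma-voom (adjusted p = 0.088), a test chosen after the data were seen. Epgn also varied most among vehicle libraries, with a coefficient of variation of 43.8% against 2.90% to 17.3% for the other 8 tested members. The mean log2 CPM of 10 genes of G2 and mitosis, also chosen after the data were seen, was 4.59, 5.71 and 6.62 in the same vehicle libraries, against 0.61 to 1.10 at 6 h and -0.04 to 0.43 at 12 h. Its part in the Epgn values was not tested.

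Nrg1, the neuregulin-1 gene, had the steepest fall of the members at 6 h. It went from 395, 360 and 318 CPM in vehicle to 32.3, 31.9 and 28.6 CPM at 6 h and 51.1, 61.7 and 41.4 CPM at 12 h. The groups did not overlap, and all PMA libraries lay far below vehicle. The level was 11.6-fold lower at 6 h (log2 fold change -3.53 ± 0.13, adjusted p = 4.2e-12) and 6.94-fold lower at 12 h (-2.80 ± 0.12, adjusted p = 4.2e-11), with a partial return in between (0.74 ± 0.13, adjusted p = 0.00024). Nrg1 makes many isoforms, which a count per gene does not part.

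Btc, the betacellulin gene, was near the limit of detection and was not tested. The libraries held 3, 2 and 0 reads in vehicle, 4, 1 and 0 at 6 h and 2, 3 and 4 at 12 h, at most 0.347 CPM. The 12 h libraries (0.136 to 0.347 CPM, 9 reads in all) lay just above vehicle (0 to 0.129 CPM, 5 reads). With so few reads no difference between groups is read from these values.

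**Figure D1:**
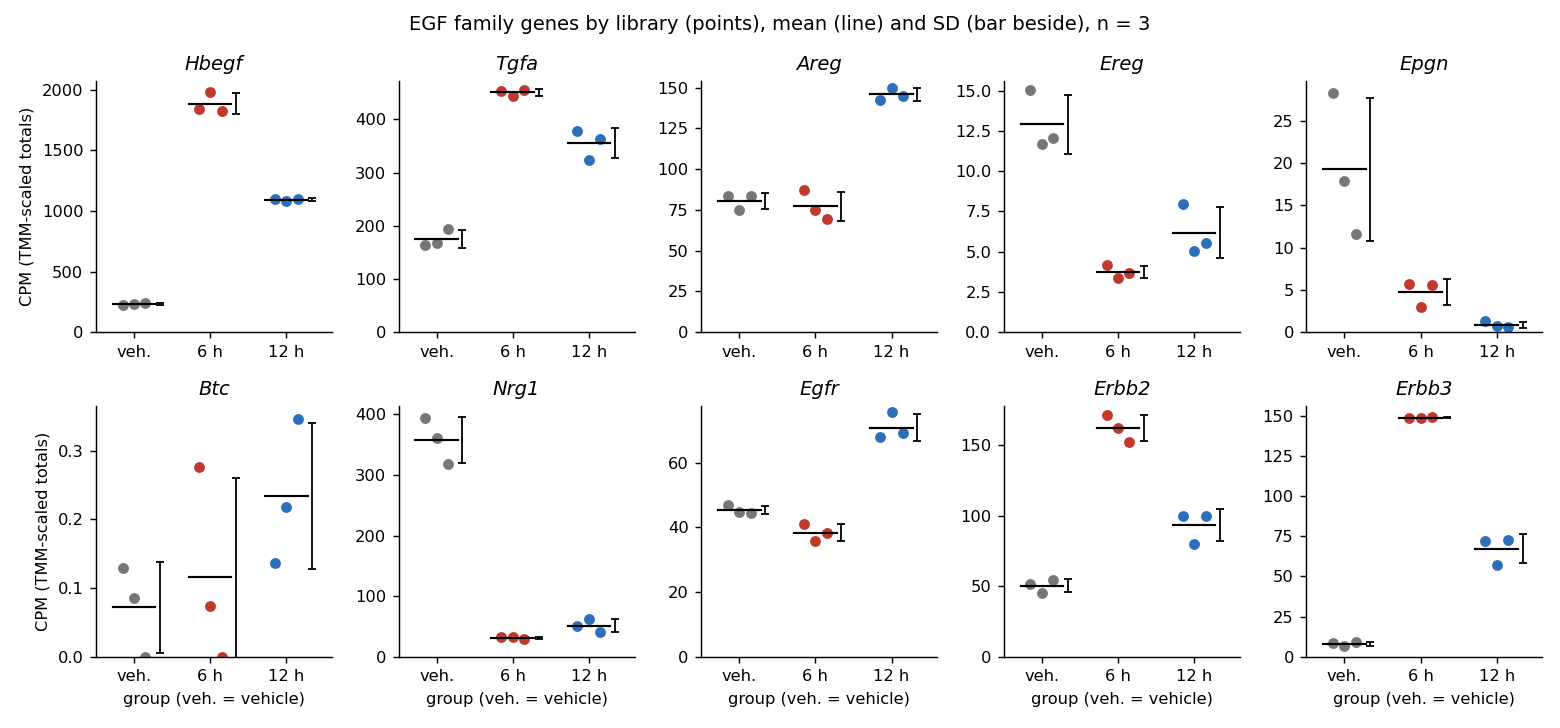
Levels of the 10 EGF family genes in CPM on linear axes from 0, one panel per gene with its own scale. Points are libraries of vehicle, PMA 6 h and PMA 12 h, lines are means and bars are the SD (n = 3, cropped at 0 for Btc). Hbegf, Tgfa, Erbb2 and Erbb3 were highest at 6 h, Areg and Egfr at 12 h, and Nrg1, Ereg and Epgn in vehicle.

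Erbb3 rose the most of the receptors. Its level was 8.33, 6.57 and 9.35 CPM in vehicle, 149, 149 and 149 CPM at 6 h and 72.4, 57.0 and 72.7 CPM at 12 h. The groups did not overlap, and the 12 h libraries lay between the others. The rise was 18.5-fold at 6 h (log2 fold change 4.21 ± 0.13, adjusted p = 8.5e-15) and 8.37-fold at 12 h (3.06 ± 0.12, adjusted p = 4.8e-13). From 6 h to 12 h the level fell by 1.15 on the log2 scale (SE 0.11, adjusted p = 2e-07). Erbb3 binds neuregulin-1, whose gene was lowest at the time when Erbb3 was highest. This was not particular to that pair. Pearson's r of Nrg1 over the 9 libraries was -0.993 with Erbb3, -0.993 with Hbegf and -0.994 with Tgfa.

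Erbb2, the partner receptor without a ligand, rose less. It had 51.7, 45.2 and 54.2 CPM in vehicle, 172, 162 and 153 CPM at 6 h and 100.0, 80.0 and 99.6 CPM at 12 h. All 6 h libraries lay above all 12 h libraries, and these above vehicle. The rise was 3.22-fold at 6 h (1.69 ± 0.10, adjusted p = 4.8e-11) and 1.85-fold at 12 h (0.89 ± 0.10, adjusted p = 2.5e-07), with a drop of -0.80 ± 0.10 between the times (adjusted p = 2.9e-06).

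Egfr, the receptor of most of these ligands, was a little lower at 6 h and higher at 12 h. The libraries held 47.0, 44.9 and 44.5 CPM in vehicle, 41.0, 35.7 and 38.4 CPM at 6 h and 67.8, 75.7 and 69.1 CPM at 12 h. The groups did not overlap. The fall at 6 h was small (-0.24 ± 0.09, adjusted p = 0.021) and lost its call without vehicle replicate 1 (-0.22, adjusted p = 0.055) or PMA 6 h replicate 2 (-0.19, adjusted p = 0.097). The rise at 12 h was 1.56-fold (0.64 ± 0.09, adjusted p = 4.5e-06), and without scaling it did not pass (0.06, adjusted p = 0.56). Between the PMA times Egfr rose by 0.88 ± 0.09 (adjusted p = 5.1e-07), a step that passed under every scaling tried.

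**Figure D2:**
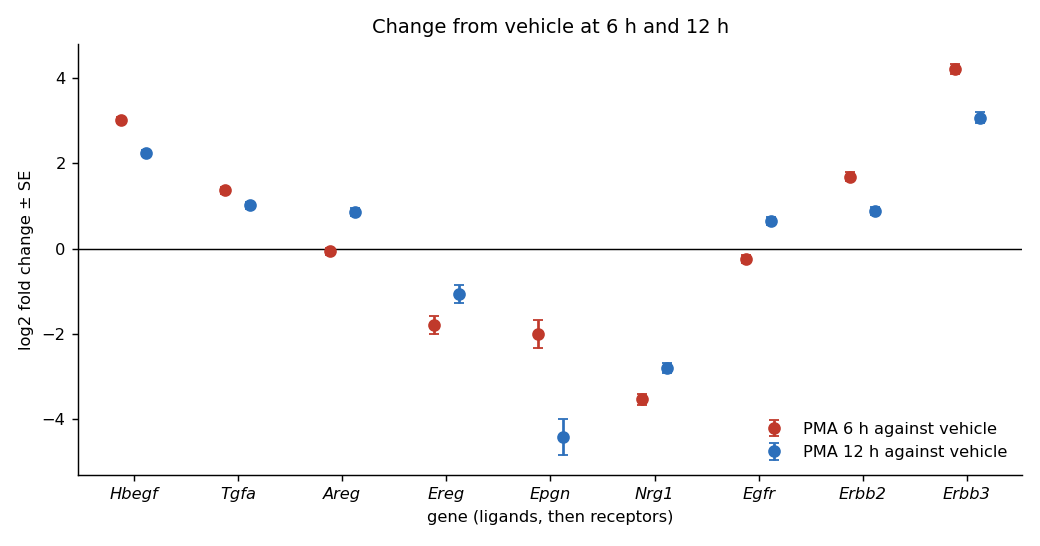
Log2 fold change with its SE for the 9 tested members, ligands then receptors, at 6 h and 12 h of PMA against vehicle. Erbb3 (4.21 at 6 h) and Hbegf (3.02) stood highest and Nrg1 (-3.53 at 6 h) and Epgn (-4.42 at 12 h) lowest, and Areg and Egfr lay near 0 at 6 h and above it at 12 h.

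The members were also set against each other within libraries, where scaling cancels. The log2 ratio of Erbb3 to Egfr counts was -2.50 ± 0.26 in vehicle, 1.96 ± 0.10 at 6 h and -0.08 ± 0.28 at 12 h. The ratio was thus 22.0-fold higher at 6 h and 5.36-fold higher at 12 h than in vehicle, and the groups did not overlap (exact two-sided permutation p = 0.1 for each, the smallest that 3 against 3 libraries can give). For Erbb2 to Egfr the log2 ratio was 0.14 ± 0.14, 2.08 ± 0.10 and 0.39 ± 0.27. It was 3.82-fold higher at 6 h than in vehicle without overlap (exact permutation p = 0.1), while 12 h and vehicle overlapped (difference 0.25, exact permutation p = 0.3). Adjusted over the 9 tests of this kind, the smallest p was 0.1125, so none passed.

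As shares of the summed counts of the 3 receptors, Erbb3 made up 7.75% ± 0.924 in vehicle, 42.6% ± 1.35 at 6 h and 29.0% ± 1.92 at 12 h. The share of Egfr was 43.9% ± 2.64, 11.0% ± 0.598 and 30.8% ± 4.14 in the same groups, and that of Erbb2 was 48.4% ± 1.72, 46.4% ± 1.36 and 40.2% ± 2.22. Transcript lengths enter these shares, so only their change between groups is read. Erbb4, which is no member, had no read in any of the 9 libraries, which allows at most 0.0199 CPM over all of them.

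Among the 6 ligand genes whose proteins bind EGFR, Hbegf took 44.7% ± 0.947 of the summed counts in vehicle, 77.8% ± 1.10 at 6 h and 68.3% ± 0.920 at 12 h. The groups did not overlap in this share, and the exact two-sided permutation p was 0.1 for each pair. In every library the 95% Wilson interval of the share had a half-width of at most 0.962 percentage points, for counting error only. The share of Tgfa went from 33.6% ± 2.06 to 18.6% ± 0.846 and 22.1% ± 1.28, although the level of Tgfa itself rose. The Areg share was 15.5% ± 0.615, 3.19% ± 0.380 and 9.11% ± 0.448, and Ereg, Epgn and Btc each took under 1% in every PMA library.

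**Figure D3:**
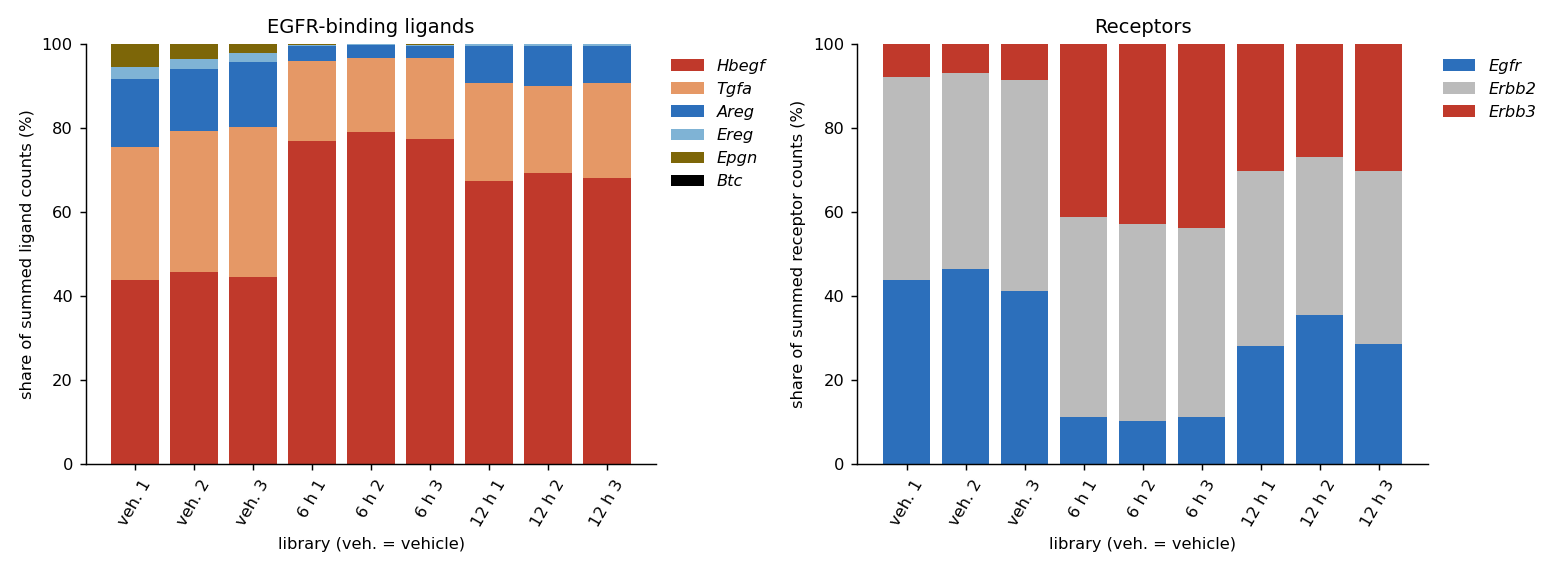
Share of summed counts in percent for each of the 9 libraries, with 6 EGFR-binding ligand genes in 1 panel and 3 receptor genes in the other. Hbegf took 43.8% to 45.7% of ligand counts in vehicle libraries and 77.0% to 79.1% at 6 h, and Erbb3 took 6.80% to 8.65% of receptor counts in vehicle and 41.2% to 43.9% at 6 h.

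Genes whose products act on these ligands and receptors were read as fixed lists. Of all genes tested, 37.8% rose and 39.0% fell at 6 h, and 37.7% rose and 38.2% fell at 12 h. Of 9 tested genes of ligand shedding and processing, 8 rose and 1 fell at 6 h (median log2 fold change 1.06, against -0.03 for all genes, of which 76.8% changed). Over the other ways of processing tried, 6 to 8 of them were called higher and 1 to 2 lower at 6 h. Rhbdf1, which encodes iRhom1, an escort of the protease ADAM17, rose from 57.1 ± 3.37 to 353 ± 14.0 CPM (2.63 ± 0.08, adjusted p = 4.7e-15). Adam10, whose protease releases several of these ligands, rose by 1.69 ± 0.07, and Rhbdf2, which encodes iRhom2, by 1.14 ± 0.09. Adam19 rose too (1.77 ± 0.46, or 2.49 without vehicle replicate 2), from a low level of 0.694 to 2.42 CPM, and Adam15 fell (-0.34 ± 0.10).

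Adam17, the protease that releases HB-EGF, TGF-alpha and amphiregulin, stood at 93.9, 101 and 110 CPM in vehicle, 201, 203 and 230 CPM at 6 h and 114, 122 and 106 CPM at 12 h. It rose at 6 h (1.06 ± 0.08, adjusted p = 3e-09) and fell from 6 h to 12 h (-0.89 ± 0.08, adjusted p = 1.9e-07), and at 12 h its libraries overlapped vehicle (0.17 ± 0.08, adjusted p = 0.08). At 12 h 6 of the 9 genes were higher than vehicle and 0 lower (median 0.38), or 66.7% called against 75.8% of all genes, with Rhbdf1 at 1.99 ± 0.07 and Adam9 at 1.60 ± 0.11. Without scaling the 12 h counts were 4 higher and 4 lower.

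Of 10 tested genes listed under receptor inhibitors and turnover, Cd9 included, 6 rose and 1 fell at 6 h, and 7 rose and 1 fell at 12 h (medians 0.40 and 0.78). The called share was 70% and 80%, against 76.8% and 75.8% of all genes. Without scaling these counts were 3 and 3 at 6 h and 5 and 4 at 12 h. Errfi1, which encodes the kinase inhibitor MIG6, rose from 122, 105 and 97.9 CPM to 989, 990 and 966 CPM at 6 h and stood at 638, 567 and 637 CPM at 12 h. Its log2 fold change was 3.18 ± 0.09 at 6 h (adjusted p = 4.7e-15) and 2.51 ± 0.09 at 12 h (adjusted p = 7e-14). Cblc, a ubiquitin ligase of the CBL family, rose by 1.04 ± 0.11 at 6 h, and its relative Cblb rose by 0.71 ± 0.12, a call lost without scaling (0.17, adjusted p = 0.21). Cd9, a tetraspanin that associates with the HB-EGF precursor, rose by 0.96 ± 0.07. Usp8, a deubiquitinase of endosomal receptors, fell by 0.63 on the log2 scale at 6 h (SE 0.09), and its 12 h value of -0.22 lost the call without vehicle replicate 1 (-0.17) or without PMA 12 h replicate 1 (-0.23) or 3 (-0.20). Lrig2 (0.05), Socs5 (-0.05) and Sh3kbp1 (-0.49) did not pass at 6 h.

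Of 21 tested genes of receptor adaptors and the RAS-ERK and PI3K relay, 14 rose and 3 fell at 6 h, and 14 rose and 2 fell at 12 h (medians 0.71 and 0.54). That is 81% and 76.2% called in either direction, near the 76.8% and 75.8% of all genes. The docking proteins led this list, with Gab2 at 1.97 ± 0.30 and Gab1 at 1.78 ± 0.10 at 6 h. The exchange factor Sos1 rose by 1.43 ± 0.10. Gab2 was low, going from 0.858 to 3.44 CPM. Akt1 (-0.38 ± 0.08), Hras (-0.25 ± 0.08) and Plcg1 (-0.23 ± 0.09) fell, and Plcg1 lost its call without vehicle replicate 2 (-0.16) or 3 (-0.20) and without PMA 6 h replicate 2 (-0.22) or 3 (-0.19). At 12 h the lower genes were Pik3r1 (-0.35) and Hras (-0.19). Leaving out vehicle replicate 1 or 3 ended the Pik3r1 call (-0.31 each), as did leaving out replicate 2 (-0.32) or 3 (-0.28) of PMA 12 h. The Hras call at 12 h ended when any 1 vehicle library was left out (-0.20 to -0.19), and also with PMA 6 h replicate 1 (-0.19) or with replicate 1 (-0.19) or 2 (-0.14) of PMA 12 h left out. Without scaling 9 genes of this list were lower at 6 h, and 9 were higher and 9 lower at 12 h.

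Of 9 tested ERK-responsive genes, 6 rose and 1 fell at 6 h, and 5 rose and 2 fell at 12 h (medians 1.14 and 0.25). The called share was 77.8% at both times, near the 76.8% and 75.8% of all genes. Egr1, an early transcription factor, went on rising, from 49.8 ± 5.70 CPM to 323 ± 13.0 at 6 h and 802 ± 17.5 at 12 h. Dusp6, a phosphatase of ERK, rose at 6 h (1.35 ± 0.07) and its 12 h libraries overlapped vehicle (-0.01 ± 0.07, adjusted p = 0.91). Phlda1 (2.63 ± 0.08) and the AP-1 subunit Fosl1 (1.31 ± 0.08) rose at 6 h, and both were lower at 12 h than at 6 h (-1.08 ± 0.07 and -1.06 ± 0.08). Ccnd1, the cyclin D1 gene, fell at 6 h (-1.17 ± 0.10) and was lower than vehicle at 12 h too (-0.49 ± 0.10), as was Etv4 (-0.45). Without scaling 3 genes of this list were lower at 6 h and 5 at 12 h, Fosl1 among the latter.

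**Figure D4:**
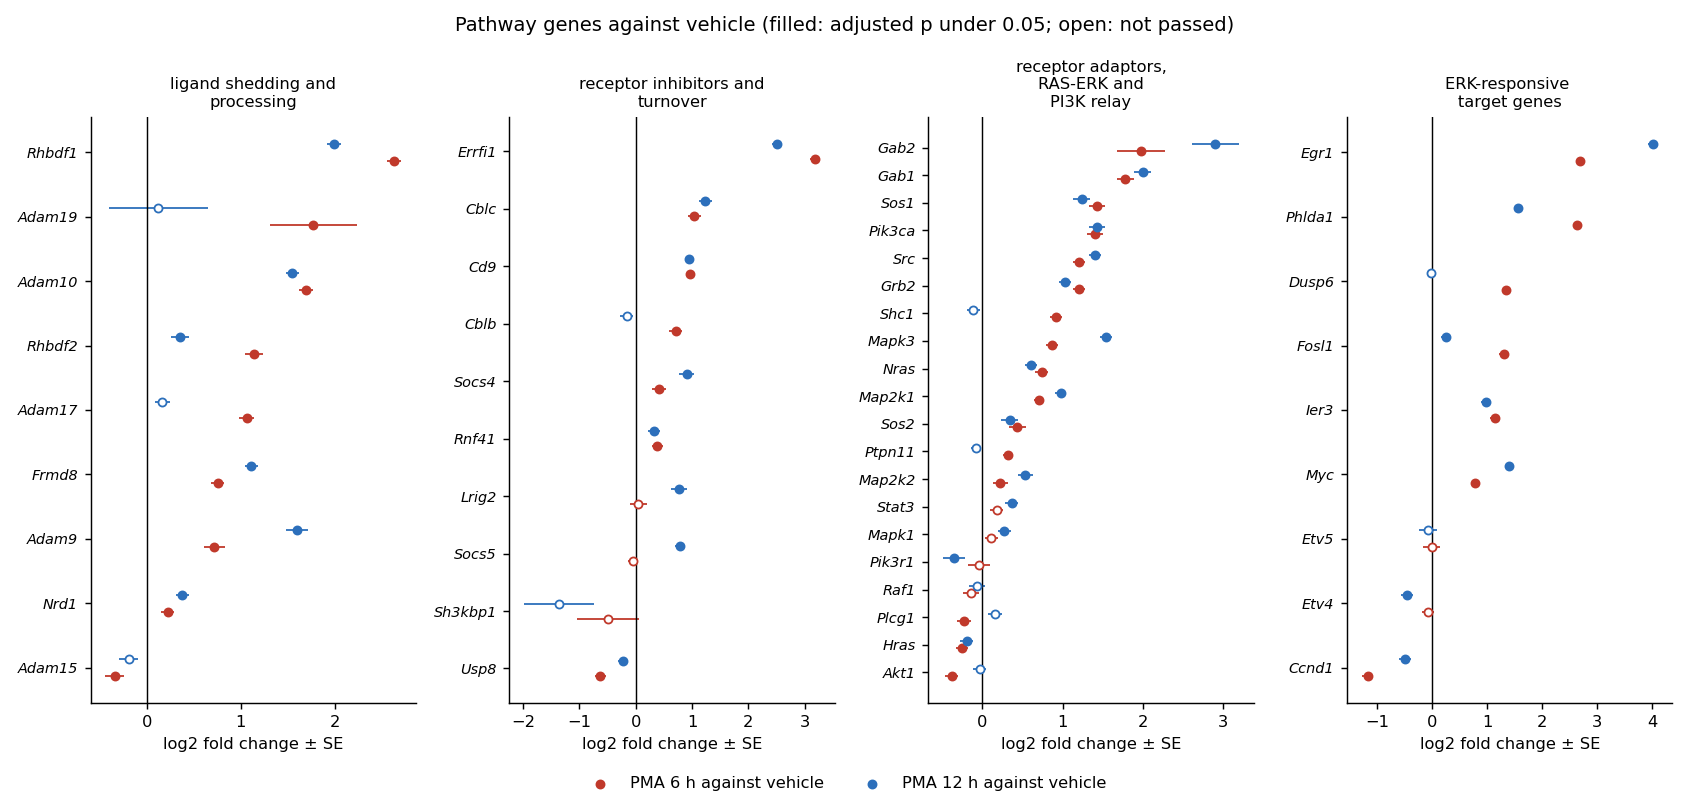
Log2 fold change with its SE at 6 h and 12 h of PMA against vehicle for tested genes of 4 pathway lists (1 relay gene is not drawn), filled where adjusted p was under 0.05. Rhbdf1 (2.63), Errfi1 (3.18) and Egr1 lie far to the right at 6 h, and Adam17 and Dusp6 lie near 0 at 12 h.

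The genes outside the family whose course was most like that of a member were named by Pearson's r of log2 CPM over the 9 libraries, among 9439 candidates. These libraries fall into 3 groups, so r mainly reads the group means. Erbb3 was nearest to Spry2 (r = 0.9988) and Zfand3 (0.9984), and Hbegf to Arid1a (0.9995) and Ovol1 (0.9994). For Tgfa these were Samd8 (0.997) and Sf3a1 (0.9969), and for Erbb2 they were LOC688459 (0.9937) and Osbpl11 (0.992). Areg was nearest to Flrt3 (0.9898) and Bfsp2 (0.9862), and Egfr to Creb3 (0.9847) and Tulp4 (0.983). Among the members that fell, Nrg1 was nearest to Stk39 and Mrpl16 (0.9975 each), Ereg to Msrb2 (0.9847) and Sesn3 (0.9833), and Epgn to Slc25a30 (0.9935) and Ncbp1 (0.9865).

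The labelled cell type was checked against markers. The summed level of 7 horizontal basal cell markers (Krt5, Krt14, Krt15, Tp63, Itga6, Itgb4 and Icam1) was 14836 to 17039 CPM in vehicle, 2467 to 2980 CPM at 6 h and 3854 to 4497 CPM at 12 h. In vehicle most of this sum came from Krt5 and Krt14 (means 6827 and 5325 CPM). Of the 7 markers 6 fell and Icam1 rose at both times. The log2 fold changes of those that fell ran from -3.80 (Krt5) to -0.48 (Itga6) at 12 h. Markers of other cell types stayed under 1 CPM in every library for 5 of 7 neuronal genes (Gap43 and Neurog1 among those at 0), 4 of 6 fibroblast genes (Col1a2 and Lum at 0) and 5 of 6 endothelial and glial genes (Sox10 at 0). The same held for 3 of 6 sustentacular and gland genes (Cyp2g1 and Ermn at 0), 3 of 5 immune genes (Ptprc at 0) and 2 of 3 respiratory genes (Scgb1a1 at 0). Summed over its list, the sustentacular and gland level was 1207 to 1412 CPM in vehicle, 1954 to 2015 CPM at 6 h and 2189 to 2530 CPM at 12 h, most of it from Krt8. All 3 tested genes of this list rose at both times. Mean Sox9 went from 18.0 CPM in vehicle to 72.5 at 6 h and 137 at 12 h, and mean Krt18 from 6.49 to 36.7 and 37.8 CPM. The immune sum went from 18.5 to 21.1 CPM up to 69.0 to 71.8 and 80.9 to 93.0 CPM, nearly all of it from Cd68. Nearly all of the respiratory sum came from Tuba1a, and it was 71.0 to 90.2, 19.0 to 26.5 and 100.0 to 122 CPM. Neuronal sums were 5.31 to 7.13, 3.74 to 5.44 and 4.68 to 9.51 CPM. Fibroblast sums were 4.51 to 5.78, 2.06 to 3.82 and 1.77 to 3.64 CPM, and endothelial and glial sums 0.425 to 0.820, 0.881 to 1.68 and 2.11 to 4.16 CPM, with Kdr at 0 in vehicle and at 1.91 to 3.64 CPM at 12 h. The 10 genes of G2 and mitosis, chosen after the data were seen, all fell at both times, against 39.0% and 38.2% of all genes. Their median log2 fold change was -4.95 at 6 h and -5.25 at 12 h. The levels of these genes and of the markers moved between the same groups as the EGF family genes, and their part in those results was not tested.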

How the data were processed

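RNA-seq of 9 libraries was analysed, grouped by the titles of the samples. The deposited tables hold counts of reads per gene, which per the submitters' processing notes came from STAR 2.7.5b and the rn6 genome, with DESeq2 also named. Which gene annotation was used was not found in the labels. The unstranded count column was used, since the columns per strand held 49.7% to 50.3% each, so antisense reads are not parted. Nrg1 and Erbb2 overlap other loci in the GRCr8 gene table, and near-identical or overlapping genes can lose reads.

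Summary lines (unmapped, multimapping, outside genes, ambiguous) were left out, and 67.8% to 71.3% of reads lay in genes. In R 4.3.3 with edgeR 4.0.16, genes were kept by filterByExpr at a minimum count of 10 (10128 genes), scaled by TMM (factors 0.848 to 1.31) and fitted with a robust quasi-likelihood model over all 9 libraries with group as the only term, with Benjamini-Hochberg adjustment over the 10128 genes. The SE is the log2 fold change divided by the square root of F. Ratios of counts used a pseudocount of 0.5 and exact two-sided permutation tests. Log2 CPM for marker means and correlations used a prior count of 2. Replicates differed by more than counting error (chi-square per degree of freedom 3.88 to 27.8). The fits, with limma 3.58.1 and DESeq2 1.42.0 as alternatives, were tried on simulated data with 50 changed genes of each size. At a log2 change of 0.5 edgeR recovered 42% of them, and at 1 it recovered 98%. False calls were 5.56% of edgeR's calls, 6.59% of limma-voom's and 9.14% of DESeq2's. Far fewer genes changed in the simulation than in these data, so it does not check the fits under so broad a change. Every simulated gene had the same spread beyond counting error, and only 6 h against vehicle was scored. The simulation therefore gives no error rate for genes whose replicates vary more, such as Epgn.

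The members and lists were chosen with earlier results of these data known. The text names all members, up to 4 genes per list with the largest called change at 6 h, genes that account for counts of 5 or fewer, and the 2 nearest genes per member. Adam9 and Adam17 were named beyond this rule, after their values were seen. Of the listed symbols, 2 of shedding, 3 of inhibitors, 1 of the relay and 1 ligand were not analysed here, and Egf, Nrg2, Nrg4, Rhbdl2, Timp3 and Spry4 had too few reads to test. Values of 1 relay gene and 1 neuronal marker are not reported here, although the counts over their lists include them.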

Additional observations from a re-analysis of the deposited data

Results flagged for a closer look

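For all 9 tested members the response at 6 h and that at 12 h differed by the direct test of 12 h against 6 h (edgeR's quasi-likelihood test, adjusted p from 1.1e-07 to 0.012). The log2 difference, 12 h minus 6 h, was -0.79 for Hbegf, -0.35 for Tgfa, -0.80 for Erbb2 and -1.15 for Erbb3, which came down from a peak. It was 0.74 for Nrg1 and 0.73 for Ereg, which came back in part. It was 0.92 for Areg and 0.88 for Egfr, which were highest at 12 h, and -2.41 for Epgn. Of all genes tested, 51.1% passed in this step. Groups of 3 libraries are too small for a check of single outlying libraries.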

How the results depend on the processing

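Over DESeq2's size factors and Wald test, upper-quartile scaling, no scaling, no filter on low counts, a replicate block, a fit on the compared groups alone, limma-voom (chosen after seeing the data) and leaving out each library, 452 values of the 9 tested members kept direction and call, 5 lost a call, 2 gained one and 0 reversed. The gains were Areg at 6 h with upper-quartile scaling (-0.32, adjusted p = 0.0027) and without scaling (-0.60, adjusted p = 5.8e-06). Without scaling the median of all genes moved from -0.03 to -0.57 at 6 h and from -0.02 to -0.60 at 12 h, and the calls split into 2277 higher and 5855 lower at 6 h and 2120 and 6021 at 12 h, against 3831 and 3945, and 3818 and 3864. Upper-quartile scaling moved the medians to -0.29 at both times, with 3023 higher and 4837 lower at 6 h and 2963 and 4827 at 12 h.

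For 30 pathway genes 1175 of 1207 values kept direction and call, 29 lost a call and 3 reversed. The reversals were all at 12 h: Fosl1 was -0.019 with upper-quartile scaling and -0.33 without scaling, and Rhbdf2 was -0.23 without scaling. Among the calls lost without scaling were Adam9 at 6 h (0.18) and Lrig2 at 12 h (0.19). Fosl1 at 12 h also lost its call without vehicle replicate 1 (0.18) or 2 (0.22). Counts of lower genes per list moved as well, and with upper-quartile scaling 6 relay genes and 3 inhibitor genes were lower at 12 h. Leaving out 1 library gave differences of 4.33 to 4.59 for the log2 ratio of Erbb3 to Egfr at 6 h and 32.5 to 33.6 percentage points for the Hbegf share, which was 31.5 without Btc and Epgn.

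No pairing by replicate number was seen, since same-numbered libraries of different groups deviated together with r of only -0.11 to 0.03. With 3 libraries per group this cannot show that there was none, and the labels do not say. With the replicate block the members' calls were 4 higher and 4 lower at 6 h and 6 and 3 at 12 h. Among the named pathway genes it ended the calls of Plcg1 at 6 h (-0.22, adjusted p = 0.05), Usp8 at 12 h (-0.22, adjusted p = 0.055) and Hras at 12 h (-0.19, adjusted p = 0.062). The Hbegf share differed by 33.1 points at 6 h (exact sign-flip permutation p = 0.25, the smallest 3 pairs can give). Depth limits Btc, and Epgn at 12 h.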
